A study of Homo sapiens with 24 samples.

Results

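The IFIT family consists of interferon-induced proteins with tetratricopeptide repeats, and its members IFIT1, IFIT2, IFIT3 and IFIT5 were followed here through a series on A549 cells, a human lung adenocarcinoma line. The members were the rows of the deposited expression table whose Ensembl identifiers map to these symbols: ENSG00000185745.10 (IFIT1), ENSG00000119922.10 (IFIT2), ENSG00000119917.14 (IFIT3) and ENSG00000152778.9 (IFIT5). They are 4 of 60609 rows, and all 4 were among the 16062 genes with at least 1 TPM (a length-corrected share of the library, scaled to a fixed total) in at least 3 libraries.

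All cells had been transfected for 48 h, either with a pool of siRNAs against BOP1 (siBOP1), a factor needed to make the large ribosomal subunit, or with siRNA against firefly luciferase (siFLuc), an insect gene that served as the control. Medium with interferon beta (IFN), 1000 U/mL, or mock medium followed, and polyadenylated RNA was sequenced 8 h or 12 h later. Each siRNA, treatment and time was represented by 3 libraries, which makes 8 groups and 24 libraries, called mock or IFN below with the siRNA and the time. No untransfected cells enter these comparisons. All libraries come from 1 cell line and the labels do not say whether those of a group were separate cultures, so p-values measure the spread between libraries, which may be technical.

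IFIT genes are among the best known interferon-stimulated genes. Type I interferon binds the IFNAR1 and IFNAR2 receptor chains and acts through the kinases JAK1 and TYK2. These lead to the complex ISGF3, which includes STAT2 and IRF9 and binds the interferon-stimulated response element (ISRE) in promoters. IFIT1 binds the 5′ end of RNAs whose cap lacks ribose methylation and blocks their translation. IFIT3 binds IFIT1 and stabilises it, IFIT2 forms complexes with both and binds AU-rich RNA, and IFIT5 binds uncapped RNA with a 5′ triphosphate and is known to act as a monomer.

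The promoters are shown first, because the ISRE is the element through which the treatment is known to act on these genes. The sequences are from RefSeq on GRCh38.p14, each on the plus strand of chromosome 10 and covering 180 bases before the annotated start and 10 bases from it. Capitals mark matches to the core ISRE letters, searched on both strands as GAAA, any 2 bases and GAAA. All matches lie on the minus strand and therefore read TTTC, 2 bases and TTTC here. RefSeq lists 2 starts for IFIT3 and both are given. IFIT1B, a paralog within the same cluster, is included because its window holds no match. The IFIT2 promoter was not analysed here.
IFIT1 (chr10:89392443-89392632): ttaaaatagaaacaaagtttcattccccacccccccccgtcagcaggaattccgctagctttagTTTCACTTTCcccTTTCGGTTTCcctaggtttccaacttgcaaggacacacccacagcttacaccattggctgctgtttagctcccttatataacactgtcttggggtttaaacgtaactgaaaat
IFIT3, upstream start (chr10:89327817-89328006): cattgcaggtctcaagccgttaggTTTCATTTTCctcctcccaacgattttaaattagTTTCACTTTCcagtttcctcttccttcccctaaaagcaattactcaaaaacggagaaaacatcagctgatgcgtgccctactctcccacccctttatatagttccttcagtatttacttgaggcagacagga
IFIT3, downstream start (chr10:89332349-89332538): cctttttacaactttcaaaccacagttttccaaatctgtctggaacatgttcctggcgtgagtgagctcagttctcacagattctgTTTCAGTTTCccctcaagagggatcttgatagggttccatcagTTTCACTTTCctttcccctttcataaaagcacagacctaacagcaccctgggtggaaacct
IFIT5 (chr10:89414388-89414577): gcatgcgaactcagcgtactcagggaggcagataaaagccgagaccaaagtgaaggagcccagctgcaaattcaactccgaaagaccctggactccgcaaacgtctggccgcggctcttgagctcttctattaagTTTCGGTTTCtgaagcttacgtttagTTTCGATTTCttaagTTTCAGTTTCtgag
IFIT1B (chr10:89377876-89378065): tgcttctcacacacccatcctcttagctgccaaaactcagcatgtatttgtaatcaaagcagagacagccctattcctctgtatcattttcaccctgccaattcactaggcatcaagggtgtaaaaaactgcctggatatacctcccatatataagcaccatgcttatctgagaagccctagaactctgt

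IFIT1 held 2 matches, each IFIT3 window held 2, and IFIT5 held 3. The IFIT5 matches began 45, 19 and 4 bases before the RefSeq start, and those of IFIT1 began 116 and 103 bases before theirs. The GENCODE gene starts given below differ from these RefSeq starts, and those of IFIT1 and IFIT3 fall inside printed windows. The distances from match to start therefore depend on the annotation used. Among 35116 RefSeq windows of 300 bases, from 250 bases before a start to 50 from it, 3.57% held at least 1 match on either strand, 0.259% held at least 2 and 0.037% held at least 3. The core letters of the GAS element (TTC, any 3 bases and GAA), another element of interferon-responsive promoters, were in 7.66% of windows and in none of those printed. A match is a description of the letters and not a shown binding site.

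The 4 members lie on the plus strand of chromosome 10, between positions 89283694 and 89421001 of GENCODE 29 (GRCh38), a span of 137 kb. IFIT2 comes first (89283694 to 89309276), then IFIT3 (89327894 to 89340971), IFIT1 (89392546 to 89406486) and IFIT5 (89414586 to 89421001). Each principal transcript has 2 exons, a structure of at most 2 exons being found in 6.69% of 12591 tested protein-coding genes. Over 99% of each coding sequence lies in 1 exon (between 99.6% and 99.7%), and the coding lengths run only from 1416 to 1470 bases. The 3′ UTRs differ far more, at 276 bases for IFIT1, 843 for IFIT3, 1901 for IFIT2 and 2353 for IFIT5. Codons ending in A or T made up 52.5% of the IFIT2 sequence and 56.8% of the IFIT5 sequence, with IFIT1 at 54.8% and IFIT3 at 54.1%, against a median of 41.1% over the tested genes.

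The coding sequences are related but distinct. Aligned identity was highest between IFIT2 and IFIT3, at 73.8%, and lowest between IFIT2 and IFIT5, at 64.6%. No stretch of 50 bases was shared between any pair of the 4 principal transcripts. IFIT1 shared 38 such stretches (2.08% of its own) with IFIT1B, and IFIT3 shared 2.62% with genes elsewhere on the same strand and 2.90% on the opposite strand. The principal transcript of IFIT2 shared 0 stretches with another gene, but 37 stretches of the row AL353751.1, which lies inside the span of IFIT2, are found in other IFIT2 transcripts. How the authors assigned reads that match several genes is not given in the sources used here, so the IFIT1, IFIT2 and IFIT3 levels are uncertain to that extent.

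As a check of the series, BOP1 lay at 66.4 ± 10.7 TPM (SD, n = 3) in the siFLuc mock 8 h group and 18.6 ± 0.75 in the siBOP1 mock 8 h group, and it was lower with its siRNA in each of 4 comparisons (log2 difference -1.69 to -2.00). Keratins and other genes typical of A549 were abundant (KRT8 from 2086 to 3803 TPM), although the epithelial marker EPCAM reached only 5.48 TPM. CDKN2A, which A549 lacks, was at 0 in 24 of 24 libraries, as were the leukocyte marker CD3E and the dendritic cell marker CLEC4C. The other leukocyte markers were not all at 0. CD14 lay between 1.81 and 5.26 TPM and CD79A between 0.224 and 1.38 TPM, while LYZ and PTPRC reached at most 0.823 and 0.021 TPM. Of 10 markers of other cell types, the most abundant was COL1A1 at up to 19.3 TPM. TPM keeps no sequencing depth, so depth is unknown and no counting interval can be given. The columns of each group are numbered 1, 2 and 4, whereas the labels count to 3. The library numbered 4 stood apart for the IFIT genes, and results that rest on it are given with and without it. At 12 h it also stood apart over all tested genes. There Pearson r of log2(TPM + 1) was 0.961 to 0.977 with library 4, against 0.985 to 0.988 between libraries 1 and 2. At 8 h these ranges overlapped.

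IFIT1, the sensor of incompletely capped RNA, was close to silent without IFN. In the siFLuc mock 8 h libraries 1, 2 and 4 it lay at 1.92, 3.81 and 0.676 TPM, and in the siFLuc mock 12 h libraries at 2.38, 2.88 and 0.818 TPM. With siBOP1 the mock levels were 1.93, 1.99 and 1.40 TPM at 8 h and 2.13, 2.29 and 0.973 TPM at 12 h. The lowest value of each mock group was that of library 4.

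Under IFN the same transcript reached 1199, 1305 and 1123 TPM with siFLuc at 8 h and 1242, 1306 and 553 TPM at 12 h. In siBOP1 cells it reached 1384, 1436 and 1357 TPM at 8 h and 1268, 1338 and 841 TPM at 12 h. Every IFN library stood far above every mock library, and at 12 h library 4 lay below the other IFN libraries with either siRNA. For 8 h and 12 h the ratio of the group means was 566 and 510 with siFLuc, and 785 and 640 with siBOP1.

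IFIT2, a partner of IFIT1 and IFIT3 that is also linked to apoptosis, had similar mock levels. They were 2.30, 2.72 and 1.45 TPM with siFLuc at 8 h and 2.82, 3.26 and 1.34 TPM at 12 h. With siBOP1 they were 1.71, 1.93 and 1.68 TPM at 8 h and 2.64, 2.57 and 3.32 TPM at 12 h. Here library 4 was the lowest in 3 of the groups and the highest in siBOP1 mock 12 h.

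IFIT2 in IFN libraries stood at 1188, 1127 and 843 TPM with siFLuc at 8 h and at 1387, 1367 and 637 TPM at 12 h. With siBOP1 it stood at 1118, 1098 and 813 TPM at 8 h and at 1137, 1316 and 738 TPM at 12 h. Library 4 was the lowest of each IFN group, already at 8 h. The ratios of means were 488 and 457 with siFLuc and 569 and 374 with siBOP1.

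IFIT3, which stabilises IFIT1, started higher. Mock levels were 4.51, 6.03 and 3.40 TPM with siFLuc at 8 h and 5.36, 5.46 and 2.24 TPM at 12 h. With siBOP1 they were 3.43, 3.97 and 4.18 TPM at 8 h and 5.08, 4.08 and 3.57 TPM at 12 h. The mock levels of the siRNAs overlapped at both times.

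Under IFN, IFIT3 lay at 1015, 1001 and 916 TPM with siFLuc at 8 h and at 1109, 1132 and 498 TPM at 12 h. In siBOP1 cells the values were 1115, 1128 and 974 TPM at 8 h and 1085, 1189 and 682 TPM at 12 h. Again library 4 was the lowest of each IFN group, by the widest margin at 12 h. The ratios of means were 210 at both times with siFLuc, and 278 and 232 with siBOP1.

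IFIT5, the member that acts alone, had other levels at both ends. It was the most abundant member without IFN, at 10.5, 9.22 and 10.2 TPM with siFLuc at 8 h and 10.5, 10.5 and 6.53 TPM at 12 h. With siBOP1 the mock levels were 10.1, 11.8 and 10.3 TPM at 8 h and 11.1, 12.1 and 7.39 TPM at 12 h. Library 4 was the lowest at 12 h but not at 8 h.

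IFIT5 in IFN libraries lay at 93.3, 89.1 and 90.0 TPM with siFLuc at 8 h and at 73.4, 75.3 and 41.4 TPM at 12 h. With siBOP1 it lay at 90.8, 91.9 and 92.4 TPM at 8 h and at 65.9, 71.1 and 55.1 TPM at 12 h. At 8 h the 6 libraries were nearly level, and every 12 h library was below every 8 h library. The ratios of means were 9.12 and 6.91 with siFLuc and 8.55 and 6.27 with siBOP1.

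**Figure D1:**
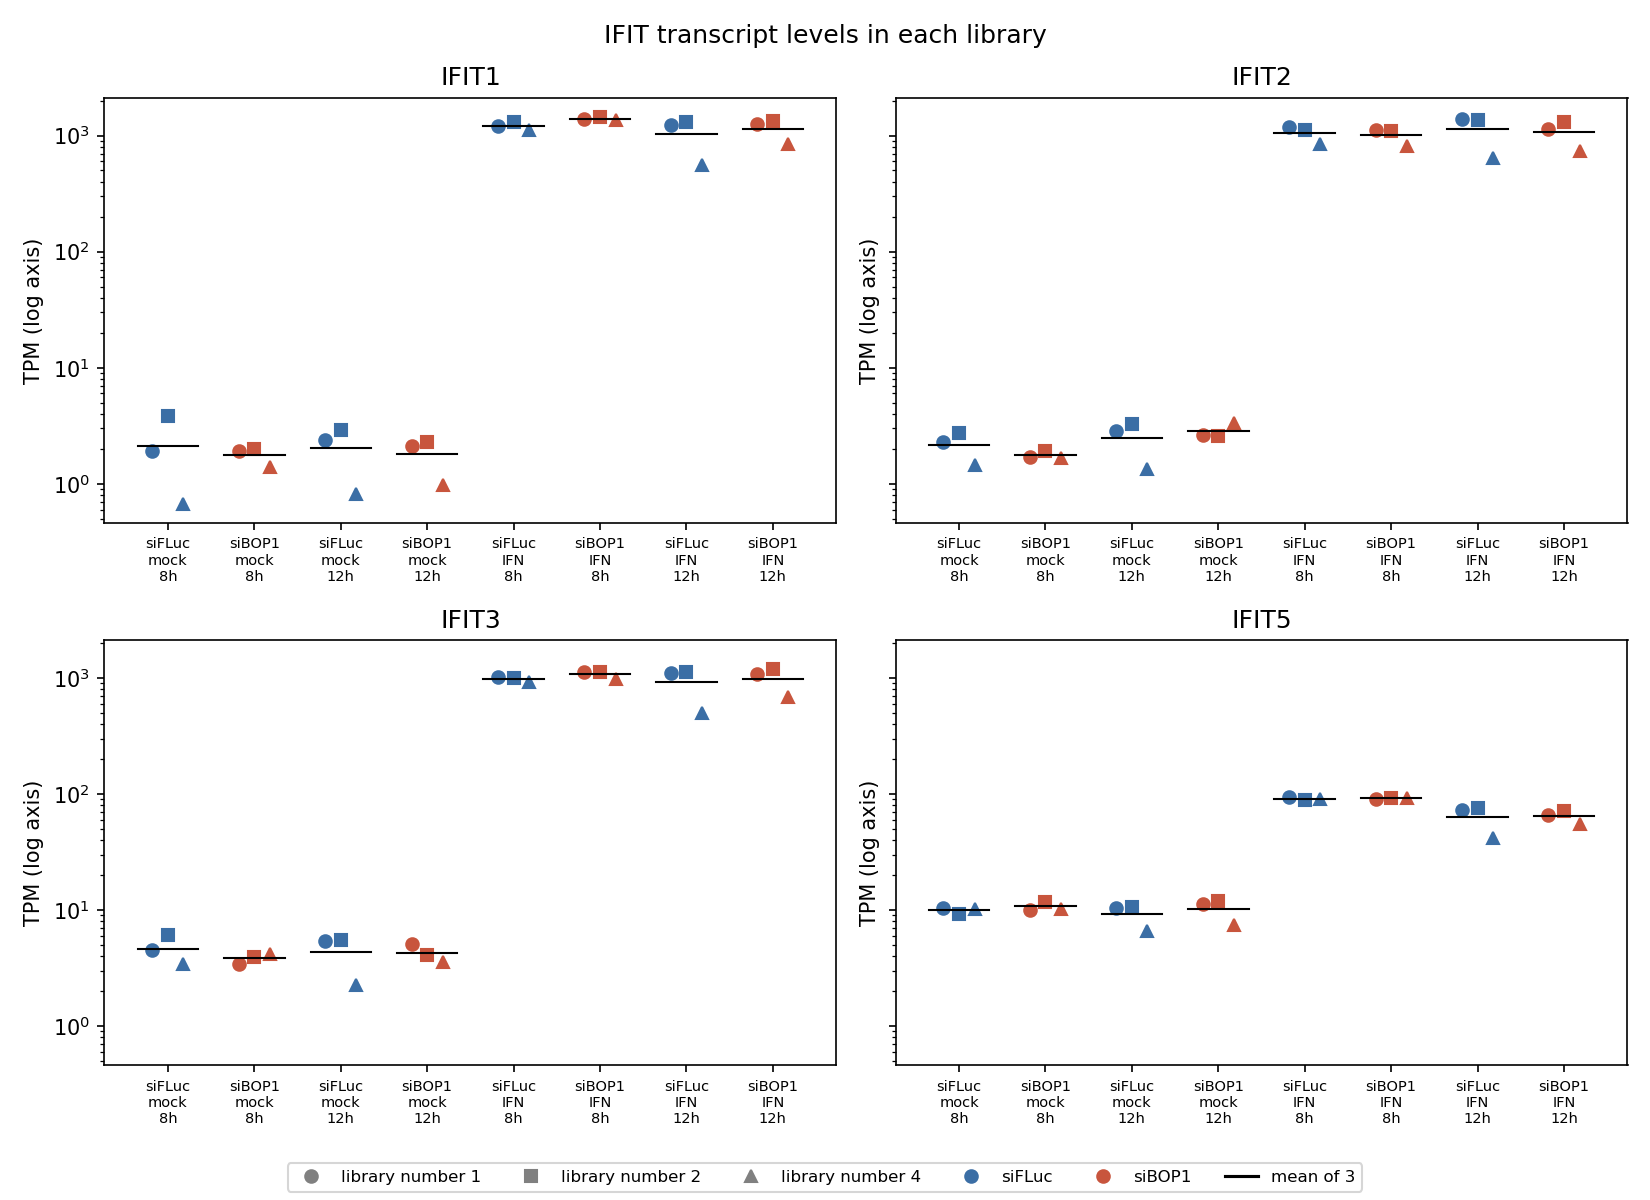
TPM of each IFIT member in every library, on a log axis, by siRNA, treatment and time; symbols mark the library number, colours the siRNA and lines the mean of 3 libraries. IFIT1, IFIT2 and IFIT3 rise from at most 6.03 TPM to at least 498 TPM, IFIT5 from mock means of 9.18 to 10.7 TPM to IFN means of 63.4 to 91.7 TPM, and the triangles (library 4) sit lowest in every IFN 12 h group.

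The order of the members turned over. TPM corrects for transcript length, so levels of different members are set side by side on that scale. The transcript lengths behind the deposited values are not known here. Close orders, such as those among IFIT1, IFIT2 and IFIT3 under IFN, are uncertain for that reason. In 12 of 12 mock libraries IFIT5 was first and IFIT3 was in the next place, with IFIT2 above IFIT1 in 9 and IFIT1 above IFIT2 in 3. In 12 of 12 IFN libraries IFIT5 was last. IFIT1 led all 6 libraries at 8 h, whereas at 12 h IFIT2 led in the 3 siFLuc libraries and IFIT1 in the 3 siBOP1 libraries. The mock levels of IFIT1 and IFIT2 overlapped, as did the IFN levels of IFIT1, IFIT2 and IFIT3 at 12 h. The 4 members together made up 0.00109% to 0.00221% of a mock library and 0.173% to 0.391% of an IFN library.

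The IFN effect was tested with limma on log2(TPM + 1), with Benjamini-Hochberg adjustment over all 16062 genes and a threshold of 0.05; this scale understates the change of transcripts that start low. In bulk RNA, fewer cells that respond and less RNA per cell cannot be told apart. All 4 members rose in all 4 comparisons, and in none did an IFN library overlap a mock library. IFN libraries lay wholly above mock libraries for 9.92% of all genes with siFLuc at 8 h and 11% at 12 h, and for 10.1% and 12.4% with siBOP1. Over all genes, 5.77% were called higher with siFLuc at 8 h and 7.06% at 12 h, and with siBOP1 5.99% and 7.17%. The median change of the members was 7.93, 7.85, 8.14 and 7.80 in that order of comparisons, beside -0.094, -0.062, -0.14 and -0.076 over all genes.

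IFIT1 had the largest rise of all tested genes in each of the 4 comparisons, with log2 changes at 8 h and 12 h of 8.72 and 8.39 for siFLuc and 8.98 and 8.69 for siBOP1 (SE 0.34). IFIT2 rose by 8.39 and 8.31, and by 8.50 and 8.08 (SE 0.27), which placed it between rank 2 and rank 4. IFIT3 rose by 7.46 and 7.39, and by 7.79 and 7.53 (SE 0.28), at rank 6 or 7. IFIT5 rose by 3.07 and 2.64, and by 2.99 and 2.56 (SE 0.20), between rank 100 and rank 138. The highest adjusted p among these 16 values was 2.59e-09, for IFIT5 in siBOP1 cells at 12 h.

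**Figure D2:**
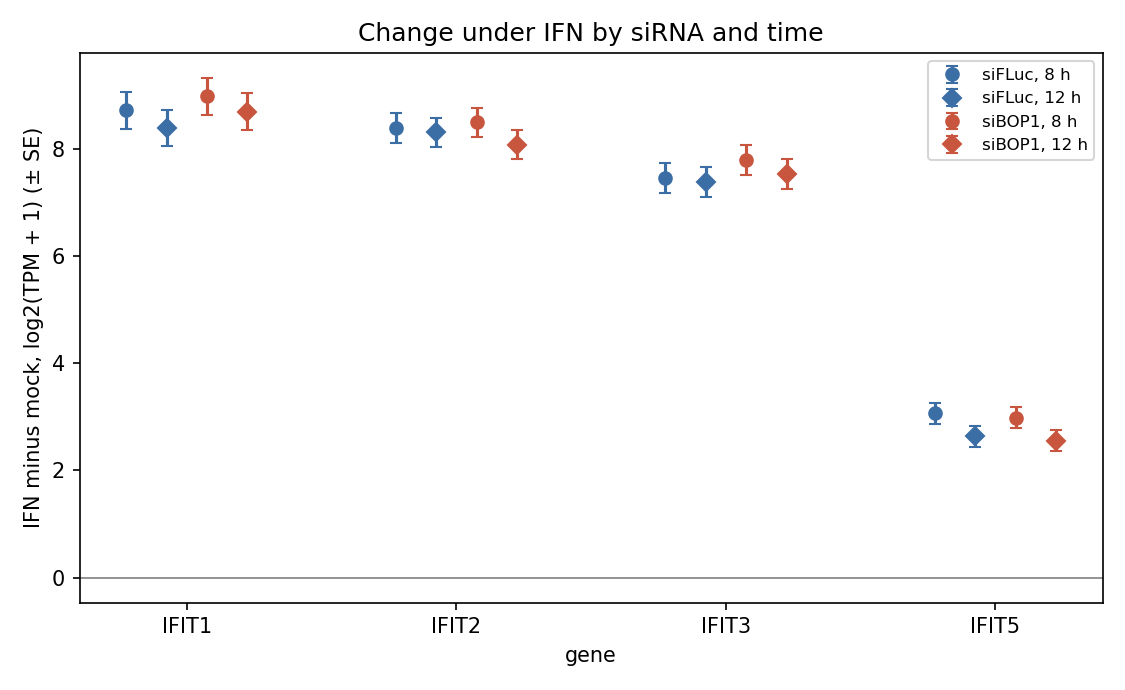
Difference between IFN and mock in log2(TPM + 1), with the limma standard error, for each member, siRNA and time. IFIT1 and IFIT2 lie between 8.08 and 8.98, IFIT3 between 7.39 and 7.79, and IFIT5 between 2.56 and 3.07.

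The members were then compared with each other within libraries, by a two-sided exact permutation test that exchanged IFN and mock labels within each siRNA and time (160000 arrangements), adjusted over 6 pairs. IFIT5 rose less than each other member. On the log2 scale the gap to IFIT1 was 5.88, to IFIT2 5.50 and to IFIT3 4.73. IFIT3 rose less than IFIT1 by 1.15 and less than IFIT2 by 0.78. Each of these 5 differences had the smallest p the permutations allow, 1.25e-05 (adjusted p = 1.5e-05), and had the same sign in all 4 combinations of siRNA and time. The test took all libraries as independent, although those of equal number within a time ran together across genes. Its p-values may therefore be too small. IFIT1 exceeded IFIT2 by 0.38 (exact adjusted p = 0.0017), but with libraries 1 and 2 alone this gap was 0.15 with an adjusted p of 0.0802 by the same exact permutation test.

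IFIT levels with BOP1 depleted were compared next, since the series asks how loss of a ribosome biogenesis factor bears on the interferon response. No member passed the threshold in any of the 4 BOP1 siRNA comparisons. Over all genes 2.16% were called in mock cells at 8 h, 1.6% in mock cells at 12 h, 2% in IFN cells at 8 h and 0.66% in IFN cells at 12 h. The member differences lay between -0.19 and 0.22 on the log2(TPM + 1) scale, and their lowest adjusted p in limma was 0.84. For IFIT1 under IFN the difference was 0.21 at 8 h (95% interval -0.51 to 0.92) and 0.22 at 12 h (-0.49 to 0.94). IFIT2 under IFN differed by -0.059 at 8 h (-0.62 to 0.51) and -0.043 at 12 h (-0.61 to 0.52). The IFIT5 intervals were narrower, -0.40 to 0.43 at 8 h and -0.36 to 0.47 at 12 h, around 0.015 and 0.056. These intervals leave room for differences of either sign. IFIT1 in IFN 8 h cells was the only member whose siRNA groups did not overlap in either treatment and time, with all siBOP1 libraries above all siFLuc libraries. That is 1 of the 4 members in that comparison, where the siRNA groups did not overlap for 19.8% of all genes, in either direction.

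The siRNA by IFN interaction asks whether the rise itself differed with BOP1 depleted. None of the 4 members passed at 8 h or at 12 h, and neither did any other gene (0% at 8 h and 0% at 12 h by limma, where an unadjusted p under 0.05 was reached by 353 and 259). The largest member value was that of IFIT3 at 8 h, 0.33 (95% interval -0.50 to 1.15), followed by IFIT1 at 12 h with 0.30 (-0.71 to 1.31). IFIT2 at 12 h lay at -0.23 (-1.03 to 0.57). The member values at each time did not share a sign.

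The time points were compared within each siRNA and treatment. Without IFN no member passed, against 0.131% of all genes with siFLuc and 0.23% with siBOP1. The highest mock value was that of IFIT2 in siBOP1 cells, 0.47 (SE 0.27, adjusted p = 0.626), where the groups did not overlap; they did not in 19.3% of all genes. Under IFN no member passed either, against 3.53% of genes with siFLuc and 2.96% with siBOP1. For IFIT5 the difference, 12 h minus 8 h, was -0.56 for siFLuc (95% interval -0.97 to -0.15, limma adjusted p = 0.119) and -0.52 for siBOP1 (-0.93 to -0.11, adjusted p = 0.161).

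Both sets of IFIT5 libraries were apart, every 12 h library being below every 8 h library; the groups did not overlap, in either direction, for 22.9% of all genes with siFLuc and 23.9% with siBOP1. With libraries 1 and 2 alone the differences shrank to -0.29 in siFLuc cells (adjusted p = 0.0932) and -0.41 in siBOP1 cells (adjusted p = 0.025). IFIT1 lay at -0.32 and -0.31 and IFIT3 at -0.19 and -0.16, and without library 4 the siFLuc values were 0.026 for IFIT1 and 0.15 for IFIT3. IFIT2 lay at 0.033 and 0.049. With siBOP1 each 12 h library was also below each 8 h library for IFIT1, so that 2 of the 4 members had groups apart there and 1 of the 4 with siFLuc. The time by IFN interaction passed for none of the 4 members with siFLuc (0.00623% of genes) or siBOP1 (0% of genes, with 603 at an unadjusted p under 0.05). IFIT5 gave -0.43 in both.

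Shares within the family do not depend on how a library is scaled, since they divide each member by the sum of the 4. The 4 shares of a library add up to the whole, so a higher share of any member lowers the others. The share tests below are therefore not separate results, and they do not show which member's own level differed. In siFLuc IFN libraries IFIT1 made up 36.4 ± 1.83% of the sum at 8 h and 32.7 ± 0.85% at 12 h (SD, n = 3), and IFIT2 made up 31.5 ± 2.84% and 36.2 ± 0.83%. In siBOP1 IFN libraries IFIT1 made up 39.2 ± 2.43% and 35.4 ± 1.08%, and IFIT2 28.2 ± 2.68% and 32.5 ± 0.99%. IFIT3 stayed between 28.4% and 30.8% in every IFN library. IFIT5 had 2.74 ± 0.26% and 2.09 ± 0.27% with siFLuc, and 2.59 ± 0.23% and 2.02 ± 0.31% with siBOP1.

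From 8 h to 12 h the share of IFIT2 rose by 4.50 percentage points, that of IFIT1 fell by 3.71 and that of IFIT5 fell by 0.61 (two-sided exact permutation test within siRNA, 400 arrangements, adjusted p = 0.0133 over 8 share tests). Each p was the smallest possible, 0.005 by exact permutation. The test took the libraries of both siRNAs as independent. Libraries of equal number within a time ran together across genes, so these p-values may be too small. The IFIT3 share differed by -0.18 points (exact adjusted p = 0.765). The directions were the same with libraries 1 and 2 alone for IFIT1, IFIT2 and IFIT5, where the exact permutation test cannot go below 0.0556.

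Between siRNAs the share of IFIT1 was higher with siBOP1 by 2.72 points and that of IFIT2 was lower (-3.47 points) (exact permutation within time, adjusted p = 0.02 and 0.032). IFIT3 differed by 0.87 points and IFIT5 by -0.11 (exact adjusted p = 0.0867 and 0.514). Neither siRNA call was left when library 1 or library 2 of siFLuc IFN 8 h, or library 4 of siBOP1 IFN 8 h, was taken out. The exact adjusted p was then 0.064, 0.056 and 0.064 for both genes, with differences of 2.20, 2.89 and 2.03 points for IFIT1 and -2.84, -3.33 and -2.71 points for IFIT2. Without library 4 of siFLuc IFN 8 h the IFIT3 difference, 1.22 points, passed as well (exact adjusted p = 0.0133). In a comparison added after the data were seen, libraries of equal number were paired within each time and the signs of the 6 differences exchanged. IFIT1 was higher with siBOP1 in 6 of 6 pairs, by 0.525 to 4.31 points, and IFIT2 was lower in 6 of 6, by -1.60 to -4.97 points. IFIT5 was lower in 6 of 6 as well and IFIT3 higher in 5. The exact p was 0.0312 for IFIT1, IFIT2 and IFIT5, the smallest that 6 pairs allow (adjusted p = 0.0417), and 0.0938 for IFIT3 (adjusted p = 0.107).

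**Figure D3:**
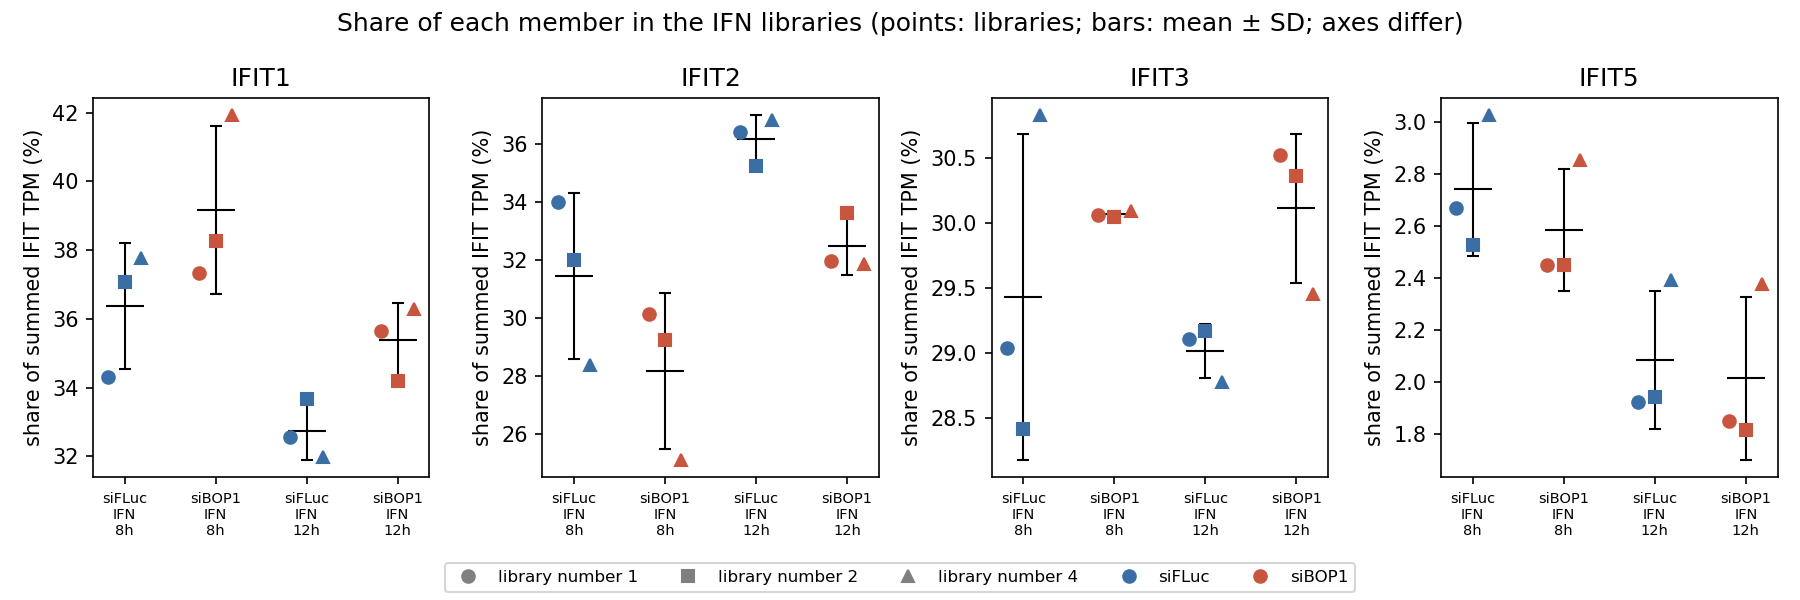
Percent share of each member in the summed TPM of the 4 members, for the 12 IFN libraries; points are libraries, bars the mean ± SD of 3, and the vertical axes differ and do not start at 0. The IFIT2 share is 31.9% or more in every 12 h library, while IFIT5 stays between 1.82% and 3.03%.

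Library 4 was set against libraries 1 and 2 over both siRNAs, a comparison chosen after its low values were seen. Its p-values are therefore a description and no test of whether library 4 differs. They also take the libraries numbered 4 of both siRNAs as independent, although libraries of equal number ran together. In IFN 12 h cells all 4 members were lower in library 4, IFIT1 by -0.92, IFIT2 by -0.92, IFIT3 by -0.95 and IFIT5 by -0.57 on the log2 scale (limma adjusted p = 0.00454, 0.00432, 0.00187 and 0.00376), where 4.99% of all genes were called lower. In IFN 8 h cells no member passed, against 3.31% of genes. In mock 12 h cells IFIT1, IFIT3 and IFIT5 were lower by -0.85, -0.63 and -0.60, and IFIT2 at -0.26 did not pass, against 5.55%. In mock 8 h cells only IFIT1 passed, at -0.73 (adjusted p = 0.0446), against 2.24%.

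Other interferon-stimulated genes did not all share the size of this gap. In siFLuc IFN 12 h cells library 4 held 43.4% of the mean of libraries 1 and 2 for IFIT1, 46.3% for IFIT2, 44.4% for IFIT3 and 55.7% for IFIT5. The same figure was 64.4% for ISG15, a ubiquitin-like modifier, 87.5% for the antiviral GTPase MX1 and 108% for USP18, an inhibitor of the receptor. In siBOP1 IFN 12 h cells the members stood at 64.5%, 60.2%, 60.0% and 80.4%. A set of 453 genes was called higher under IFN at 12 h with both siRNAs, by at least 1 on the log2 scale. It was chosen from the same libraries and includes the members. Its median difference in IFN 12 h cells was -0.16, and the members (IFIT1, IFIT2, IFIT3 and IFIT5) ranked 15, 14, 13 and 51 from the bottom. In IFN 8 h cells they ranked 328, 81, 273 and 376. What set library 4 apart was not tested.

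**Figure D4:**
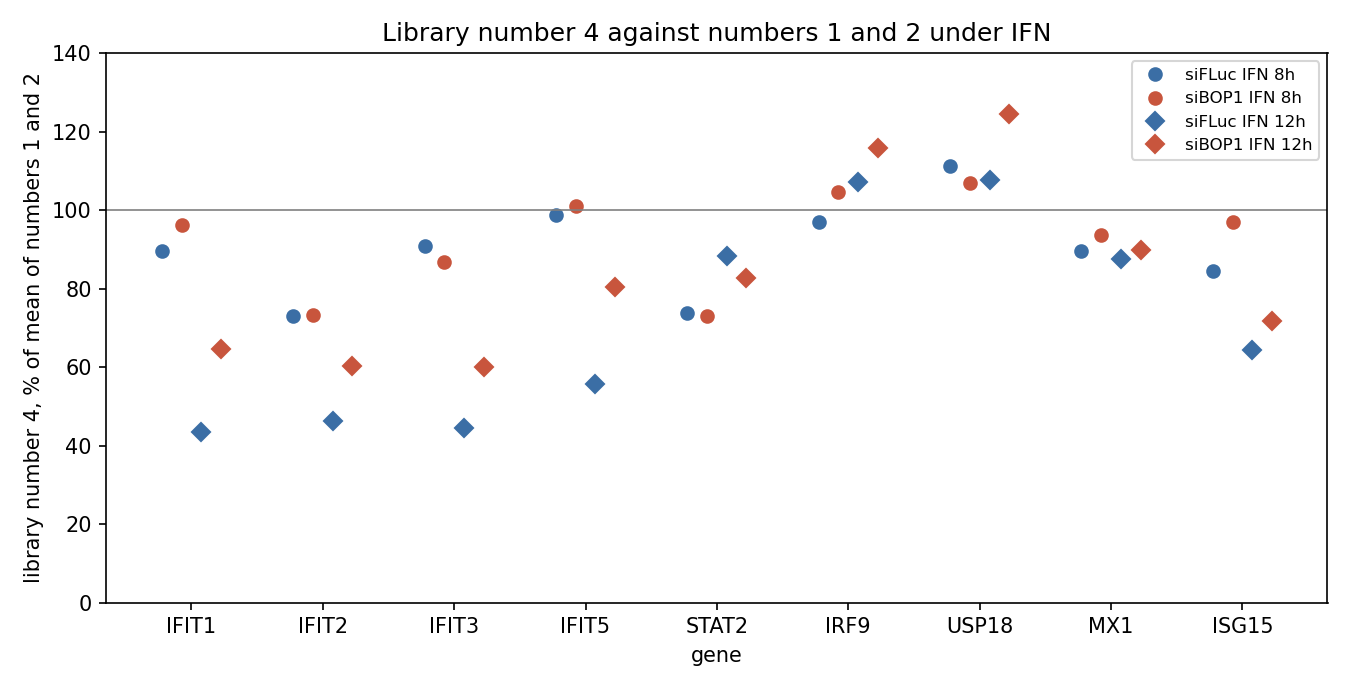
TPM in library 4 as a percent of the mean of libraries 1 and 2 in each IFN group, for the IFIT members and 5 other interferon pathway or interferon-stimulated genes; the line marks equality at 100. The IFIT members at 12 h lie between 43.4% and 80.4%, and USP18 lies above the line in all 4 groups.

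The pathway that feeds the IFIT promoters was read through a list of 26 genes, of which 25 were tested. IFNB1, the gene of the ligand added to the medium, was not tested and was at 0 TPM in the mock libraries. With siFLuc 12 of the 25 were called higher at 8 h and 12 at 12 h, with 1 lower each time, and with siBOP1 12 and 14 were higher with 1 and 2 lower. Over all 16062 genes, 5.77% and 7.06% were called higher with siFLuc, and 5.99% and 7.17% with siBOP1. Those called lower numbered 814 and 1032 with siFLuc, and 1464 and 1218 with siBOP1. The list's median change was 0.41, 0.45, 0.46 and 0.55.

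In siFLuc cells at 8 h the ISGF3 subunit genes STAT2 and IRF9 rose, STAT2 by 4.20 (SE 0.16) and IRF9 by 2.95 (SE 0.21), while the receptor chain IFNAR1 fell by 0.59 (SE 0.13, limma adjusted p = 0.00357). The kinases JAK1 (-0.29) and TYK2 (-0.025) did not pass. Other factors that can bind ISRE-like elements also rose, IRF7 by 6.08, IRF1 by 2.98 and IRF2 by 2.33, but IRF3, at 0.19, did not pass. Among inhibitors USP18 rose by 4.75 and the JAK inhibitor SOCS1 by 3.88, and SOCS3 at 0.55 and PIAS1 at 0.19 did not pass.

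CMTR1, the methyltransferase whose cap mark hides host mRNA from IFIT1, rose by 1.75 (SE 0.096), whereas CMTR2 (-0.16), RNMT (0.0082) and RAMAC (0.059) did not pass. The eIF3 subunit genes EIF3C (-0.26) and EIF3E (-0.18), whose proteins IFIT1 or IFIT2 are known to bind, did not pass at that time. At 12 h EIF3E fell by 0.33 with siFLuc (adjusted p = 0.0182) and by 0.34 with siBOP1 (adjusted p = 0.0125), and EIF3C fell by 0.42 with siBOP1 (adjusted p = 0.0459) while its siFLuc value of -0.17 did not pass. The RNA sensors RIGI and IFIH1 rose by 5.66 and 5.96, TBK1 by 0.41, and MAVS at -0.19 did not pass. No gene of the list was called in the 4 BOP1 siRNA comparisons, where the 4 IFIT members also did not pass. Over all genes only 0.66% to 2.16% were called there. At such low shares the absence of calls in a short list says little about the list.

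The genes with the most similar pattern were found by Pearson r of log2(TPM + 1) over the 24 libraries, among 11483 candidates. These values are a description, since all genes share the libraries and the split into mock and IFN sets most of r. For IFIT1 they were MX1 (0.998), SAMD9L (0.997) and SAMHD1 (0.997), for IFIT2 SHFL, MX1 and THEMIS2 (each 0.998), and for IFIT3 THEMIS2, MX1 and MX2 (0.998, 0.998 and 0.997). IFIT5 stood further off, with SAMD9L at 0.992, MYD88 at 0.99 and DTX3L at 0.989. Only 1 gene exceeded 0.99 with IFIT5, whereas 71, 90 and 78 did with IFIT1, IFIT2 and IFIT3. After the group means were taken away, the members' deviations over the 12 IFN libraries still ran together, with r from 0.88 (IFIT2 and IFIT5) to 0.99 (IFIT1 and IFIT3); the low library 4 at 12 h is part of these points.

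Within 500 kb of the cluster the annotation holds 11 other protein-coding genes, of which 7 were tested. In each of the 4 IFN comparisons 2 were called higher: FAS, a death receptor, and LIPA, a lysosomal acid lipase. Over all genes 5.77% to 7.17% were called higher in these comparisons, and whether the neighbours differ from that share was not tested. In siFLuc cells at 8 h FAS rose by 0.90 (SE 0.16) and LIPA by 1.01 (SE 0.078). LIPA lies on the opposite strand and overlaps the cluster, and whether the counting used strand is not given in the sources used here, so shared reads cannot be told apart. PANK1 was lower only in siBOP1 cells at 8 h, by -0.62 (adjusted p = 0.0355), where 1464 of 16062 genes were called lower.

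The remaining IFIT rows stayed near 0. IFIT1B, whose promoter window is printed above without an ISRE match, was at 0 TPM in all mock libraries and between 0.1 and 0.374 TPM in IFN libraries. It shares 50-base stretches with IFIT1, and whether its low values are reads of IFIT1 was not tested. The pseudogene row IFIT1P1 reached at most 0.148 TPM and IFIT6P at most 0.116 TPM.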

How the data were processed

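Polyadenylated RNA was measured in 24 libraries of A549 cells. The authors deposited TPM values per gene, per the table itself, and each column sums to 1000000; the aligner, counter, genome build and annotation are not given in the sources used here. Gene symbols were matched for 60340 of 60609 identifiers. Columns were assigned to groups by name: 16 matched a labelled replicate, and the 8 columns numbered 4 were used as libraries of their group. Members and gene lists were chosen with earlier results of these data known.

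The tests used R 4.3.3 and limma 3.58.1 and were run on log2(TPM + 1) (1 mean per group, eBayes with trend, Benjamini-Hochberg over 16062 genes, threshold 0.05) in 16 comparisons. The fit was tested on simulated data of 16062 genes for the siFLuc 8 h IFN comparison, where it recovered 87% of genes changed by 1 and 100% of those changed by 3 on the log2 scale. Changes were planted only in genes with a mean log2(TPM + 1) above 3, and the noise was independent between libraries. The rates do not carry over to lower genes or to libraries that run together. Differences between members and shares were compared by exact permutation (Python 3.11.15, NumPy 2.4.6). Transcript features came from GENCODE 29 and promoter windows from RefSeq (GRCh38.p14); the windows matched IFIT1, IFIT1B, IFIT3 and IFIT5 by symbol, and IFIT2 is named only. Named genes were the members, the other IFIT rows, BOP1, every gene of the pathway list, protein-coding neighbours within 500 kb, and the 3 genes most like each member; 1 gene of the pathway list is counted but not reported here.

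Deviations from the group means ran together in libraries of equal column number (r across genes 0.115 to 0.508, above 0.1 in 24 of 24 pairs). The labelled replicates 1 and 2 alone gave -0.012 to 0.156. The main limma fits and the main share tests did not pair libraries. Pairing by column number within a time entered only as an alternative and in the added comparison of shares between siRNAs. Alternatives were another pseudocount, other filters and scalings, no trend, only the groups compared, a replicate block, libraries 1 and 2 only, and leaving out each library.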

Additional observations from a re-analysis of the deposited data

How the results depend on the processing

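All 16 IFN effects of the members kept their direction and passed under each alternative run (96 values leaving out a library and 160 others). For the 48 member values that did not pass, 480 other alternatives gave 4 that passed: IFIT5 at 12 h against 8 h under IFN. The count of members called there became 1 in siBOP1 cells with libraries 1 and 2 only. It also became 1 with the column number block with either siRNA, and 1 in siBOP1 cells with the replicate block of labelled replicates 1 and 2. These blocks pair libraries within a time and take away the spread between libraries that a comparison of times needs, so the calls with them are no test of it. The replicate block changed no other member call; pairing by column number left IFIT1 and IFIT2 called between siRNAs and added IFIT5 (3 share calls in place of 2). With libraries 1 and 2 only, the share tests gave 0 calls in place of 3 between times and 0 in place of 2 between siRNAs, where their p cannot go below 0.0556. Leaving out a library gave 0 to 3 share calls between siRNAs, and the IFIT1 minus IFIT2 gap ran from 0.30 to 0.44. Elsewhere the cause of a change was not tested. TPM hides depth, so how far depth limits the low mock levels is unknown.

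The values that changed sign never passed, before or after. With libraries 1 and 2 only, with or without their labelled number as a replicate block, the BOP1 siRNA difference in mock 12 h was -0.16 for IFIT2 and -0.21 for IFIT3, and in IFN 12 h -0.12 for IFIT5. At 12 h against 8 h it was -0.049 for IFIT1, 0.042 for IFIT3 and 0.086 for IFIT5 in siFLuc mock, and 0.026 for IFIT1 and 0.15 for IFIT3 in siFLuc IFN. In siBOP1 it was 0.11 for IFIT1 and 0.080 for IFIT5 in mock, and 0.019 for IFIT3 under IFN. The time by IFN interaction in siFLuc was 0.075 for IFIT1, 0.048 for IFIT2 and 0.11 for IFIT3, and the IFIT3 share difference between times was 0.40 points. Median-of-ratios rescaling gave, at 12 h against 8 h, -0.031 for IFIT1 in siFLuc mock and -0.076 for IFIT2 under IFN with either siRNA, and 0.017 for IFIT5 in library 4 at IFN 8 h. A pseudocount of 0.1 gave 0.018 for the BOP1 siRNA difference of IFIT1 in mock 8 h. Quantile normalization gave BOP1 siRNA differences of -0.029 for IFIT3 in mock 12 h and -0.013 for IFIT5 in IFN 8 h, -0.027 for IFIT1 at 12 h against 8 h in siFLuc mock, and 0.020 for the time by IFN interaction of IFIT2 in siFLuc.

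Leaving out each library, the BOP1 siRNA difference in mock 8 h ran from -0.44 to 0.32 for IFIT1. In mock 12 h it ran from -0.41 to 0.16 for IFIT1, -0.075 to 0.36 for IFIT2, -0.30 to 0.20 for IFIT3 and -0.064 to 0.34 for IFIT5. In IFN 8 h it ran from -0.21 to 0.090 for IFIT2. In IFN 12 h it ran from -0.18 to 0.44 for IFIT1, -0.41 to 0.20 for IFIT2, -0.22 to 0.41 for IFIT3 and -0.22 to 0.20 for IFIT5. The siRNA by IFN interaction at 8 h ran from -0.11 to 0.65 for IFIT1 and -0.045 to 0.28 for IFIT2. At 12 h it ran from -0.099 to 0.63 for IFIT1, -0.60 to 0.032 for IFIT2, -0.25 to 0.46 for IFIT3 and -0.36 to 0.12 for IFIT5. The 12 h against 8 h difference in siFLuc mock ran from -0.38 to 0.38 for IFIT1, -0.058 to 0.38 for IFIT2, -0.29 to 0.21 for IFIT3 and -0.23 to 0.072 for IFIT5. In siFLuc IFN it ran from -0.54 to 0.078 for IFIT1, -0.16 to 0.40 for IFIT2 and -0.39 to 0.20 for IFIT3. In siBOP1 mock it ran from -0.15 to 0.22 for IFIT1, -0.0087 to 0.20 for IFIT3 and -0.21 to 0.11 for IFIT5. In siBOP1 IFN it ran from -0.13 to 0.29 for IFIT2 and -0.31 to 0.087 for IFIT3. The time by IFN interaction in siFLuc ran from -0.70 to 0.071 for IFIT1, -0.34 to 0.29 for IFIT2 and -0.40 to 0.32 for IFIT3. The IFIT3 share difference between times ran from -0.44 to 0.17 points.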
